A study of Mus musculus with 16 samples.

Results

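The fatty acid desaturases and elongases described here are 10 genes: the desaturases Fads1, Fads2, Fads3, Scd1 and Scd2, and the elongases Elovl1, Elovl3, Elovl5, Elovl6 and Elovl7. They were taken as all array features whose annotated gene symbol was one of these names, which gave 13 of the 44290 features and 10 of the 19087 named genes. Elovl5, Elovl7 and Fads3 had 2 features each, which were averaged, and the other genes had 1. The features were picked by gene symbol, and the set of genes itself was chosen with earlier results of these data known.

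Colon RNA was measured in male Il10-/- mice (B6.129P2-Il10tm1Cgn/J), which lack interleukin 10, a cytokine that restrains immune responses to gut bacteria, and in male C57BL/6J mice. All mice of both strains received Enterococcus faecalis, E. faecium and complex intestinal flora by gavage, ate 1 of 4 diets for 6 weeks, were fed to the intake of the Il10-/- mice and were sampled after 77 days of age. The EPA diet held 3.7% eicosapentaenoic acid (n-3) and the AA diet 3.7% arachidonic acid (n-6), each with 1% corn oil. The OA diet held 3.7% oleic acid with 1% corn oil and served as the control for the added fatty acid, and the CO diet was the AIN-76A diet itself; all contained 5% fat. Each of the 8 groups was Il10-/- or C57BL/6J on EPA, AA, OA or CO and had 2 arrays, each loaded with pooled colon RNA of 2 to 3 mice beside a common reference RNA (Swiss mouse small intestine, colon, kidney and liver, with fetal RNA). Whether both pools of a group came from separate mice is not stated, so the tests see only how these 16 arrays vary, which may be technical variation.

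Mammals make long-chain polyunsaturated fatty acids from the essential fatty acids of the diet. Fads2 performs the first desaturation of linoleic and alpha-linolenic acid, Elovl5 lengthens the product, and Fads1 performs the last desaturation, which yields arachidonic acid and eicosapentaenoic acid. Scd1 and Scd2 make monounsaturated fatty acids, oleic acid above all, from saturated ones supplied by Elovl6. In rodent liver, long-chain polyunsaturated fatty acids in the diet are known to lower the RNA of several of these enzymes, in part through the transcription factor SREBP-1. The diets here therefore fed the end products of the Fads2, Elovl5 and Fads1 chain (EPA and AA) or the end product of the stearoyl-CoA desaturases (OA), and the question was whether the colon RNA of the enzymes was lower with them.

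Upstream sequence is shown for Fads2 and Elovl5, the genes of this chain for which the genotype or the diet difference was clearest. RefSeq windows on GRCm38.p6 were found for 6 of the 10 genes, and Fads1, Scd1, Scd2 and Elovl3 were not among them. Each window is the 250 bases before the gene's annotated start, read 5′ to 3′ on the gene's strand, and capitals mark matches to CCAAT (the NF-Y box) or GGGCGG (the GC box of Sp1) on either strand.
Fads2, chr19:10101504-10101753, minus strand: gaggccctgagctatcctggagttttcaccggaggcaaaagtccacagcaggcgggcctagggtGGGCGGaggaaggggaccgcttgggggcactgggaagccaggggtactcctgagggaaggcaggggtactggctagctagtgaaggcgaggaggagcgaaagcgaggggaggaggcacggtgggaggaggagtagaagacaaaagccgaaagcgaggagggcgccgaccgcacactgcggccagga
Elovl5, chr9:77917115-77917364, plus strand: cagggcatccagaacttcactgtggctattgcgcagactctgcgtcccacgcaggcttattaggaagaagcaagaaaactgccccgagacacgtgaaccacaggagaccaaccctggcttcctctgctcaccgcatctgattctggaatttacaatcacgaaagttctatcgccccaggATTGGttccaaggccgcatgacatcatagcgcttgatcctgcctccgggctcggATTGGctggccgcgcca
The Fads2 window held 1 GGGCGG at -186 to -181 relative to the start and no CCAAT. The Elovl5 window held CCAAT on the opposite strand (read here as its complement) at -71 to -67 and at -17 to -13, and no GGGCGG. Neither window held TCACNCCAC, a form of the sterol regulatory element searched on both strands. Among 32851 windows of this length in RefSeq, 33.8% held CCAAT, 32.7% held GGGCGG and 1.05% held TCACNCCAC. These matches are descriptions of letters in the windows, and no match overlapped another.

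Values are the authors' log ratios of the sample over the reference RNA, read as log2, so a level is relative to the reference and levels of different genes cannot be set against each other. Array medians lay between -0.019 and -0.001. A single value, here called tied, was repeated in 326 to 985 features of every array and may not measure the feature. Scd2 was the gene affected: its feature was tied on 4 of 8 Il10-/- arrays and 7 of 8 C57BL/6J arrays, while the other 12 features were tied on none. C57BL/6J CO replicate 2 stood apart, with a correlation of 0.807 to its partner array, against 0.904 to 0.965 for the partner arrays of the other groups. Il10-/- OA replicate 1 carries OA in its title and EPA in its source name and was used as OA. The Il10 probe gave 0.58 ± 0.13 on Il10-/- arrays and -0.17 ± 0.08 on C57BL/6J arrays (SD, n = 8 each), and since its place relative to the disrupted part of the gene is not known, it does not check the labels. Genes of liver and kidney averaged -2.79 ± 0.23 on Il10-/- arrays and -2.50 ± 0.18 on C57BL/6J arrays, the basis for reading the ratio as sample over reference. The 12 colon epithelium genes averaged 0.36 ± 0.14 on Il10-/- arrays and 0.56 ± 0.11 on C57BL/6J arrays, but 6 or 7 of them held the tied value on every array, so this mean is a weak check of the tissue.

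**Figure D1:**
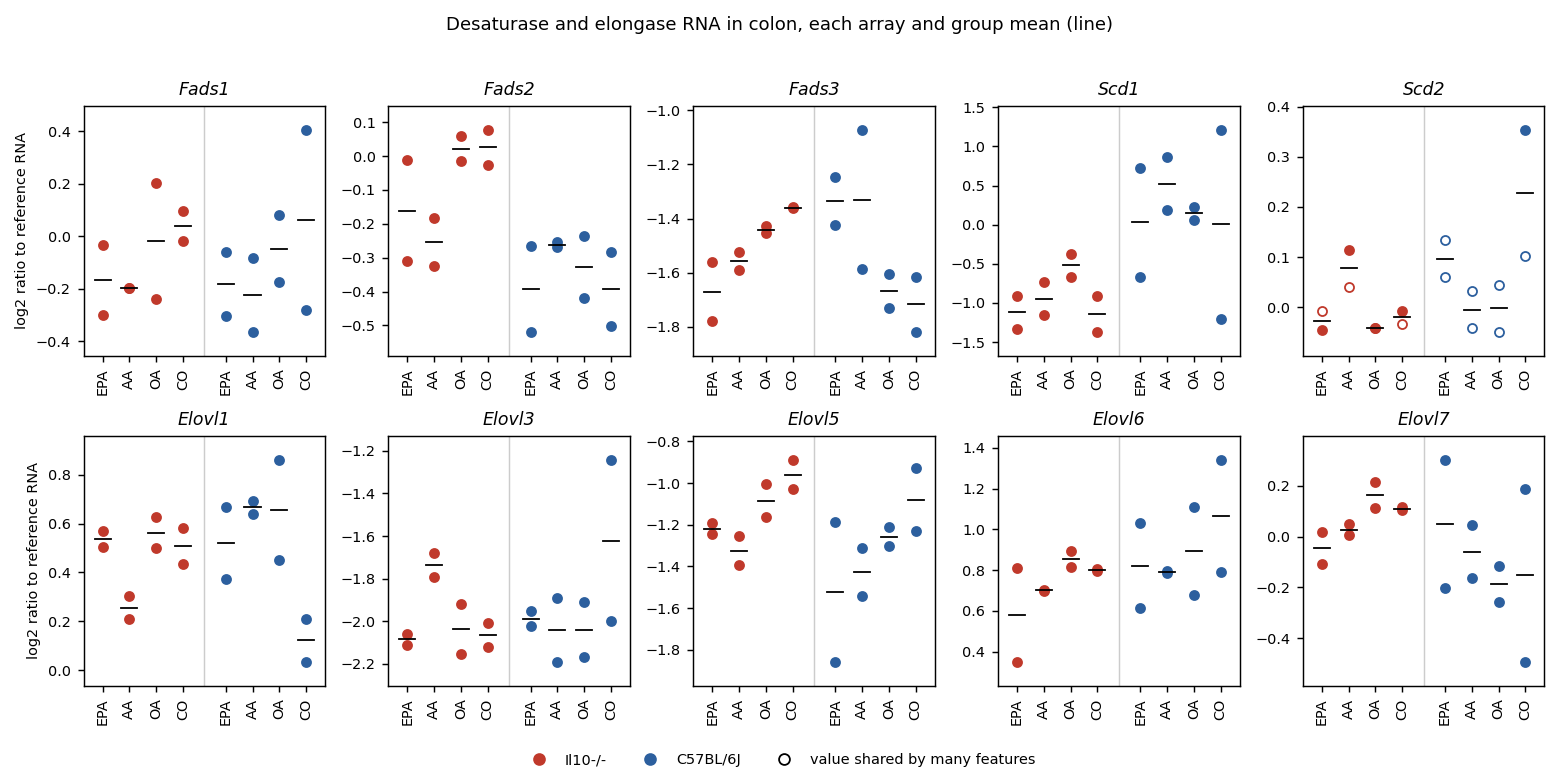
Log2 ratio to the reference RNA (vertical axis, a separate scale for each gene) of the 10 genes on 16 arrays, with Il10-/- groups in red on the left and C57BL/6J groups in blue on the right, diets on the horizontal axis, 1 point per array and a line at the group mean. Open points mark tied values, which make up 11 of the 16 for Scd2; Fads2 sits higher and Scd1 lower in Il10-/- colons, and both Scd1 arrays of C57BL/6J on CO lie far apart, at 1.21 and -1.20.

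In the Il10-/- colon, averaged over the 4 diets, Fads2 rose by 0.25 ± 0.06 and Scd1 fell by 1.11 ± 0.31 (log2 difference ± SE, limma, 8 arrays against 8). These were 2 of the 10 genes, 1 in each direction. The comparison as a whole called 17.3% of the 25892 genes and unnamed features tested, 9.14% higher and 8.12% lower, so 2 of 10 was close to the share of all genes. A gene is called where the Benjamini-Hochberg adjusted p over all tests is under 0.05.

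Fads2, the first desaturase of the polyunsaturated chain, had log2 ratios of -0.01 and -0.31 on EPA, -0.18 and -0.33 on AA, 0.06 and -0.01 on OA and -0.03 and 0.08 on CO in Il10-/- mice. In C57BL/6J mice it had -0.27 and -0.52 on EPA, -0.26 and -0.27 on AA, -0.24 and -0.42 on OA and -0.28 and -0.50 on CO. Of the 8 Il10-/- arrays, 6 lay above every C57BL/6J array, and the exceptions were EPA replicate 2 and AA replicate 2, so the genotypes overlapped. The means were -0.09 ± 0.16 in Il10-/- and -0.34 ± 0.12 in C57BL/6J colons (SD, n = 8 each). The difference corresponds to 1.19-fold, with a 95% interval of 0.11 to 0.39 on the log2 scale and an adjusted p of 0.0157 by limma. On single diets the Il10-/- minus C57BL/6J difference in Fads2 was 0.23 on EPA, 0.01 on AA, 0.35 on OA and 0.42 on CO, with adjusted p of 0.544, 0.994, 0.174 and 0.0644 by limma. None of these 4 passed, and none of the 10 genes passed on any diet, where 1.63% of all genes were called on EPA, 1.32% on AA, 5.06% on OA and 8.57% on CO.

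Scd1, the main stearoyl-CoA desaturase of fat-storing tissue, had log2 ratios of -0.91 and -1.33 on EPA, -1.16 and -0.74 on AA, -0.38 and -0.66 on OA and -0.91 and -1.36 on CO in Il10-/- mice. In C57BL/6J mice it had 0.73 and -0.66 on EPA, 0.86 and 0.19 on AA, 0.23 and 0.06 on OA and 1.21 and -1.20 on CO. All 8 Il10-/- arrays lay below the C57BL/6J median of 0.21, but only 2 lay below every C57BL/6J array, because EPA replicate 2 and CO replicate 2 of C57BL/6J were low. The means were -0.93 ± 0.34 in Il10-/- and 0.18 ± 0.80 in C57BL/6J colons (SD, n = 8 each). The ratio was 0.464-fold, with a 95% interval of -1.77 to -0.44 on the log2 scale and an adjusted p of 0.0246 by limma. Without C57BL/6J CO replicate 2 the difference was -1.41 (limma, adjusted p = 0.000493). The call was lost (limma, adjusted p of 0.0544 to 0.0607, differences of -1.09 to -0.93) when any 1 of 7 arrays was left out: Il10-/- EPA 2, AA 1, OA 2 or CO 2, or C57BL/6J EPA 1, AA 1 or OA 1.

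Adipocyte markers moved with Scd1. Of 12 adipocyte markers tested, 9 were lower in Il10-/- colons and 0 higher, with a median difference of -0.68 against -0.01 over all genes. Adipoq, the adipocyte hormone adiponectin, was at 0.73 ± 0.35 on Il10-/- arrays and 2.19 ± 0.80 on C57BL/6J arrays (SD, n = 8 each), and fell by 1.47 ± 0.24 (SE, limma, adjusted p = 0.00106). Lipoprotein lipase (Lpl) fell by 1.39, the glucose transporter Slc2a4 by 1.31 and the lipid droplet gene Cidec by 1.21. The mean of the 12 markers ranged from -0.62 to -0.03 on Il10-/- arrays and from -0.39 to 0.98 on C57BL/6J arrays. C57BL/6J CO replicate 2, where Scd1 was at -1.20, had the lowest marker mean of its genotype, -0.39, while its partner had 0.60 with Scd1 at 1.21. The part of fat in the Scd1 result was not tested. In pooled tissue, fewer cells of a type and less RNA per cell cannot be told apart. Of 4 brown fat markers 2 were lower and 1 higher, and of 9 markers of skin and sebaceous gland, another site of stearoyl-CoA desaturases, 1 was lower. Smooth muscle markers were lower as well, 5 of 8 with 0 higher and a median of -0.42. However, 3 or 4 of the 8 held the tied value on every array, so this median is a weak measure. Among the 5, Tagln was tied on all 16 arrays. Desmin (Des) fell by 0.74, Myh11, the smooth muscle myosin, by 0.68 and Lmod1, an actin nucleator, by 0.62. Macrophage markers went the other way, with 8 of 10 higher, and 5 of 8 neutrophil markers were higher.

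**Figure D2:**
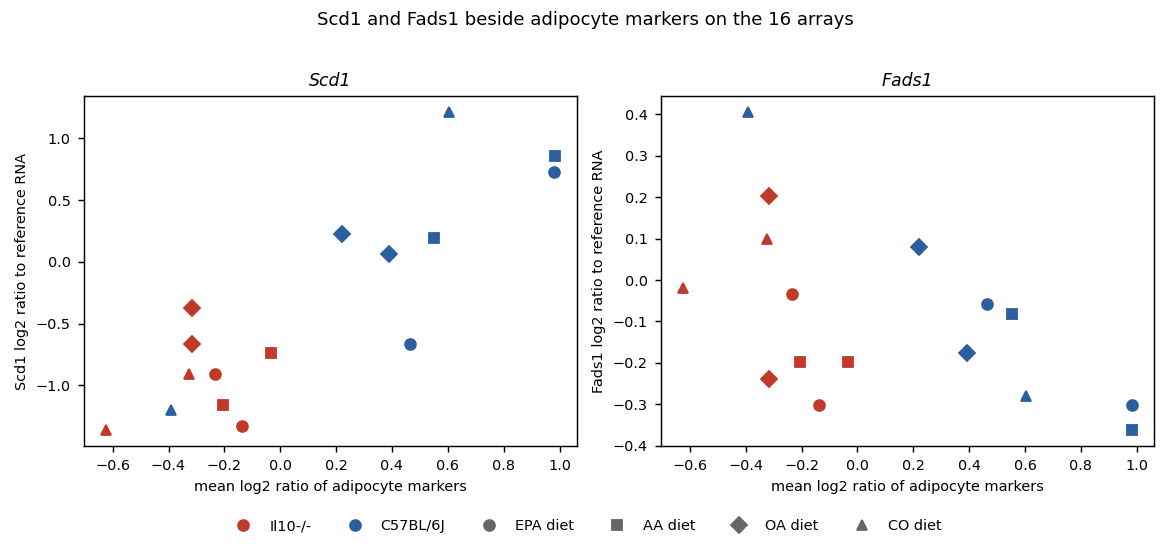
Log2 ratio of Scd1 (left) and Fads1 (right) on the vertical axes against the mean log2 ratio of 12 adipocyte markers on the horizontal axes, 1 point per array, with Il10-/- in red, C57BL/6J in blue and a symbol for each diet. In C57BL/6J mice Scd1 is 0.86 and 0.73 on the arrays with the highest marker means and -1.20 on the one with the lowest, but -0.66 on EPA replicate 2 at a mean of 0.46; in Il10-/- mice it shows no such order, and Fads1 is at -0.36 and -0.30 on the arrays with the highest marker means.

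Scd2, the isoform best known from brain, gave no usable comparison, because its feature was tied on 11 of the 16 arrays. Its levels ran from -0.05 to 0.11 in Il10-/- colons and from -0.05 to 0.35 in C57BL/6J colons, and the difference of -0.08 (95% interval -0.18 to 0.02) did not pass. Probe sequences were not used here, so cross-hybridization among the Scd genes was not checked.

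Fads1, the last desaturase of the chain, averaged -0.09 ± 0.18 in Il10-/- colons and -0.10 ± 0.25 in C57BL/6J colons (SD, n = 8 each). The difference was 0.01, with a 95% interval of -0.22 to 0.24, which reached nearly the size of the Fads2 difference. Fads3, a relative that acts on sphingoid bases, averaged -1.51 ± 0.14 in Il10-/- and -1.51 ± 0.25 in C57BL/6J colons, and its interval ran from -0.16 to 0.17. Its 2 features gave differences of opposite sign, -0.10 and 0.12, and neither passed.

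None of the 5 elongases was called between genotypes. Elovl5 differed by 0.18 (95% interval -0.02 to 0.37), and its 2 features gave 0.26 and 0.09. Over 25 alternatives the difference was 0.09 to 0.28. It was called in 1 of them, without C57BL/6J EPA replicate 1, at 0.26. Elovl7, which lengthens saturated chains, differed by 0.15 (interval -0.06 to 0.37), but its 2 features disagreed, at 0.39 (limma, adjusted p = 0.0537) and -0.08 (limma, adjusted p = 0.565). Elovl7 was called in 1 of 25 alternatives, without C57BL/6J CO replicate 2, where the averaged difference was 0.24. Elovl6, which turns palmitate into stearate, differed by -0.16 (interval -0.38 to 0.06). Elovl1, which makes saturated and monounsaturated chains of very great length, differed by -0.03 (interval -0.18 to 0.12). Elovl3, best known from brown fat and skin, differed by -0.06 (interval -0.27 to 0.16).

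**Figure D3:**
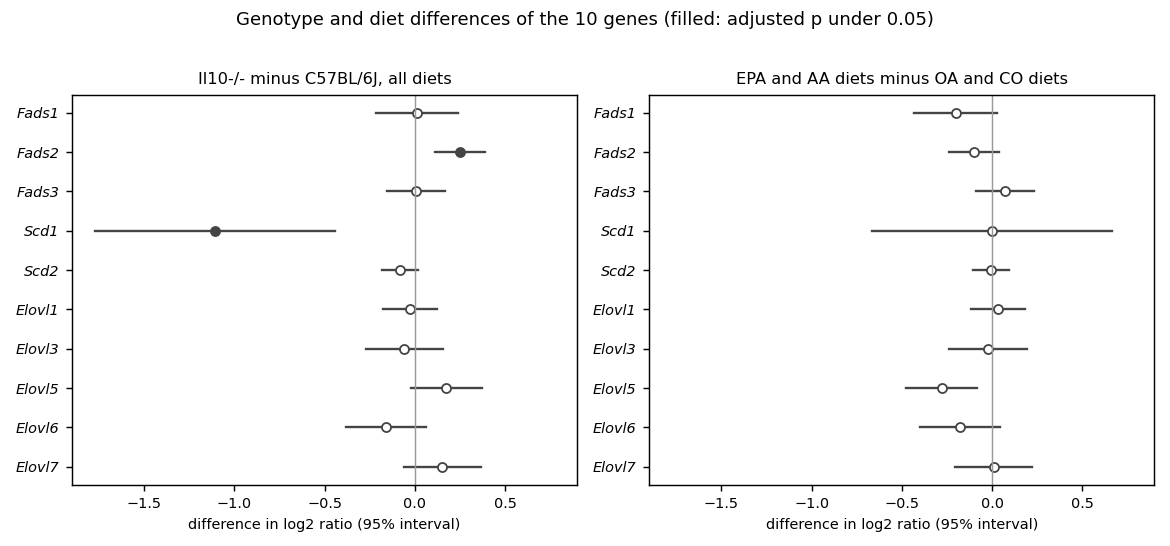
Differences in log2 ratio (horizontal axis) of the 10 genes with 95% intervals from limma, for Il10-/- minus C57BL/6J over all diets (left) and for the EPA and AA diets minus the OA and CO diets over both genotypes (right). Filled points have an adjusted p under 0.05, which Fads2 (0.25) and Scd1 (-1.11) reach on the left and no gene reaches on the right, where Elovl5 lies at -0.28.

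Other genes of the pathways around these enzymes were read in the same genotype comparison, where 17.3% of all genes were called. Of 17 genes of other desaturation and elongation steps, 1 rose and 2 fell in Il10-/- colons: the sphingolipid desaturase Degs1 rose by 0.42 ± 0.08, the dehydratase Hacd1 fell by 0.22 ± 0.06, and Cyb5b, an electron donor tied on 6 arrays, fell by 0.17 ± 0.05. These 3 of 17, like the 3 of 17 for cholesterol synthesis below, lie close to the share of all genes. Of 20 lipogenic genes under SREBP-1, ChREBP and LXR, 9 fell and 1 rose, with a median of -0.20 against -0.01 over all genes. Thrsp, a lipogenic regulator abundant in fat, fell by 1.53, Mlxipl, which encodes ChREBP, by 0.73, the lipase-like Pnpla3 by 0.71 and malic enzyme (Me1) by 0.70. Of 17 cholesterol synthesis genes under SREBP-2, 3 rose and 0 fell: Fdps by 0.40, Idi1, tied on 1 array, by 0.32 and Pmvk by 0.25. Of 20 genes of PPAR alpha and fatty acid oxidation 16 fell and 1 rose, led by Pdk4, which restrains glucose oxidation, at -1.66 and the fatty acid transporter Cd36 at -1.44. Ppara itself fell by 1.15. Of 10 acyltransferases and acyl-CoA synthetases listed for phospholipid remodelling, 2 rose and 1 fell. The acyltransferases Lpcat2 and Lpcat1 rose by 0.59 and 0.30, and the acyl-CoA synthetase Acsl3 fell by 1.26. Several of these genes are also expressed in fat, and the adipocyte marker values above stand beside them too.

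When EPA and AA diets were set against OA and CO diets over both genotypes, none of the 10 genes passed, and 0.00386% of all genes did, which is 1 gene, Pdk4, higher by 0.95 ± 0.11 (limma, adjusted p = 0.0497). At an unadjusted p under 0.05, 1 of the 10 genes and 2228 of the 25892 tested stood out. Of the 10 differences 7 were below 0, with a median of -0.01 against 0.00 (0.001) over all genes. Among the 7 were 4 of the 5 desaturases, but Scd1 (-0.001) and the largely tied Scd2 (-0.005) lay next to 0. The EPA and AA diets thus went with no called decrease in any desaturase. They fed the end products of the Fads2, Elovl5 and Fads1 chain. Oleic acid, the product of Scd1 and Scd2, was in the OA diet set against them. The intervals bound a missed decrease only within the spread of these arrays, which may be technical. They reached -0.43 for Fads1, -0.24 for Fads2, -0.09 for Fads3 and -0.67 for Scd1. For the largely tied Scd2, which gave no usable comparison, the interval reached -0.11.

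Elovl5, the elongase between Fads2 and Fads1, had the lowest unadjusted p of the 10 genes. In Il10-/- mice it had log2 ratios of -1.19 and -1.25 on EPA, -1.25 and -1.40 on AA, -1.003 and -1.165 on OA and -0.89 and -1.03 on CO. C57BL/6J mice had -1.19 and -1.86 on EPA, -1.54 and -1.31 on AA, -1.21 and -1.30 on OA and -0.93 and -1.23 on CO. In Il10-/- mice all 4 EPA and AA arrays lay below all 4 OA and CO arrays, where limma called 0.0811% of all genes in this genotype. The same separation in this direction was seen in 4.58% of the 23170 genes and unnamed features measured on all 8 arrays, and Fads3 and Elovl7 had it too. It is lost when Il10-/- OA replicate 1 (-1.003) is counted as EPA, as its source name has it. In C57BL/6J mice, where it called 0.0193%, the sets overlapped through EPA replicate 1, and none of the 10 genes passed in either genotype. Over both genotypes the mean was -1.37 ± 0.23 on EPA and AA and -1.10 ± 0.15 on OA and CO (SD, n = 8 each), and all 8 EPA and AA arrays lay below the median of the OA and CO arrays. The difference was -0.28 ± 0.09 (SE; 95% interval -0.48 to -0.08; unadjusted p = 0.0097, adjusted p = 0.44 by limma), which does not pass. Its 2 features gave -0.29 and -0.27. The difference was -0.25 in Il10-/- and -0.31 in C57BL/6J colons, and the difference between these was 0.06 (95% interval -0.34 to 0.45). Under the 25 alternatives it stayed between -0.36 and -0.19 with adjusted p of 0.188 to 0.96 by limma, and it was -0.32 without C57BL/6J CO replicate 2. Counting the array with conflicting labels as EPA gave -0.24 over both genotypes and -0.17 in Il10-/- colons.

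Fads1 had log2 ratios of -0.03 and -0.30 on EPA, -0.20 and -0.20 on AA, 0.20 and -0.24 on OA and 0.10 and -0.02 on CO in Il10-/- mice. C57BL/6J mice had -0.30 and -0.06 on EPA, -0.36 and -0.08 on AA, 0.08 and -0.18 on OA and -0.28 and 0.41 on CO. Each of the 8 EPA and AA arrays was below the OA and CO median of 0.03. Of these, 3 lay below every OA and CO array, so the sets overlapped. The difference was -0.20 ± 0.11 (SE; 95% interval -0.43 to 0.03; adjusted p = 0.644 by limma), with -0.19 in Il10-/- and -0.21 in C57BL/6J colons. The highest value, 0.41, belonged to C57BL/6J CO replicate 2, and without that array the difference was -0.12. The highest Il10-/- value, 0.20, belonged to the array labelled both OA and EPA. Counted as EPA, that array brought the difference to -0.02 in Il10-/- colons and to -0.12 (-0.116) over both genotypes. Adipocyte markers stood higher on the EPA and AA diets in 12 of 12 cases over both genotypes, with a median of 0.34, and in 10 of 12 in each genotype, with medians of 0.20 in Il10-/- and 0.54 in C57BL/6J colons, and 0 were called. These values stand beside Fads1, Elovl5, Fads2 and Fads3 alike, and their part in them was not tested.

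Fads2 differed by -0.10 over both genotypes (95% interval -0.24 to 0.04). In Il10-/- colons the difference was -0.23 ± 0.09 (SE; unadjusted p = 0.024, adjusted p = 0.462 by limma), with means of -0.21 ± 0.14 on EPA and AA and 0.02 ± 0.05 on OA and CO (SD, n = 4 each). EPA replicate 1 at -0.01 was the EPA or AA array that overlapped the OA and CO arrays. Counting the array with conflicting labels as EPA gave -0.18 in Il10-/- colons (interval -0.40 to 0.05) and -0.21 for the genotype dependence. In C57BL/6J colons the difference was 0.03 (interval -0.16 to 0.23). The genotype dependence, -0.27 (interval -0.54 to 0.01), had an adjusted p of 0.609 by limma, so the diet difference was not shown to depend on genotype. On EPA and AA together Il10-/- colons had -0.21 and C57BL/6J colons -0.33, against 0.02 and -0.36 on OA and CO.

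Fads3 differed in opposite directions in the 2 genotypes. In Il10-/- mice it had -1.78 and -1.56 on EPA, -1.52 and -1.59 on AA, -1.45 and -1.43 on OA and -1.36 and -1.36 on CO. In C57BL/6J mice it had -1.25 and -1.42 on EPA, -1.07 and -1.59 on AA, -1.73 and -1.61 on OA and -1.61 and -1.82 on CO. Within Il10-/- the 4 EPA and AA arrays were the lowest, and within C57BL/6J they were the highest, beside the 0.0811% and 0.0193% of all genes called there. Arrays separated as completely and in the same direction in 4.58% of the genes measured throughout in Il10-/- and in 1.94% of those in C57BL/6J mice. The difference was -0.21 in Il10-/- colons (adjusted p = 0.586 by limma) and 0.36 in C57BL/6J colons (adjusted p = 0.399). The test of genotype dependence gave -0.57 (95% interval -0.89 to -0.25; unadjusted p = 0.00214, adjusted p = 0.249 by limma), in a comparison that called 0% of all genes. Counting the array with conflicting labels as EPA gave -0.18 in Il10-/- colons and -0.54 for the genotype dependence. The 2 features gave -0.36 and -0.79 for the genotype dependence. In Il10-/- colons their diet differences were -0.07 (-0.065) and -0.36, so that 1 feature carried most of it, and in C57BL/6J colons they were 0.29 and 0.43. The genotype dependence does not pass, and 2 of the 10 genes had an unadjusted p under 0.05 in this comparison against 2200 of 25892 tested.

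Scd1 differed by 0.00 (-0.001) between the EPA and AA diets and the OA and CO diets, with a wide 95% interval of -0.67 to 0.66. It was -0.21 in Il10-/- and 0.20 in C57BL/6J colons. Leaving out arrays moved it between -0.30 and 0.30. Elovl6 differed by -0.18 (interval -0.40 to 0.04), and the lowest of its 16 values, 0.35, was Il10-/- EPA replicate 1. Elovl1, Elovl3 and Elovl7 differed by 0.03, -0.02 and 0.01, with intervals inside -0.24 to 0.22. Their signs too were opposite in Il10-/- and C57BL/6J colons, at -0.14 and 0.21 for Elovl1, 0.14 and -0.18 for Elovl3 and -0.146 and 0.165 for Elovl7. The genotype dependence of Elovl1 was -0.345 (95% interval -0.645 to -0.044; unadjusted p = 0.0279, adjusted p = 0.523 by limma), which does not pass.

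**Figure D4:**
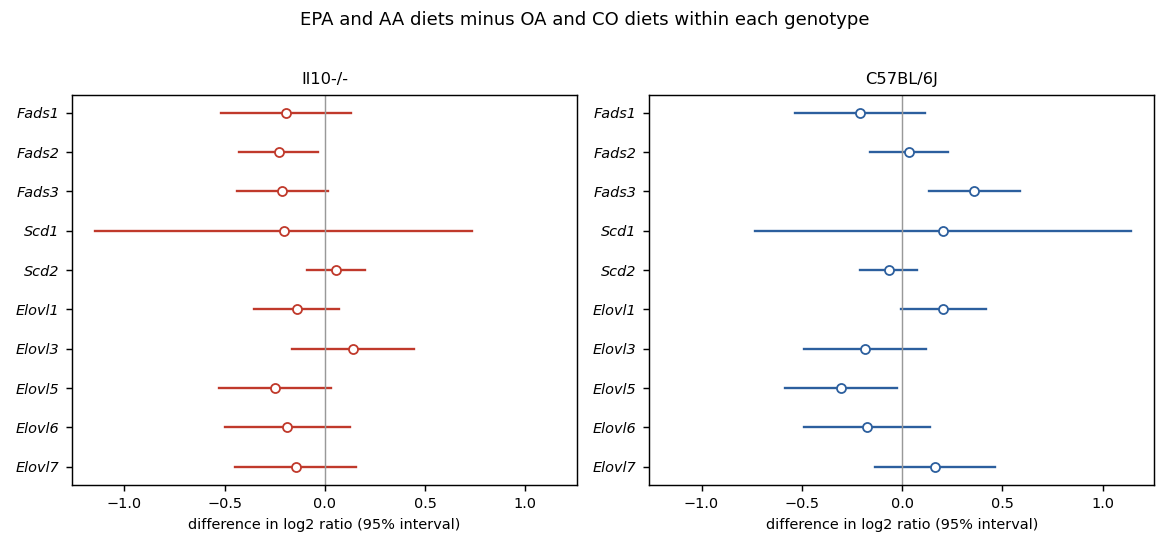
Differences in log2 ratio (horizontal axis) of the 10 genes between the EPA and AA diets and the OA and CO diets with 95% intervals from limma, in Il10-/- (left, red) and C57BL/6J mice (right, blue). Points are open because no adjusted p was under 0.05; Fads3 lies at -0.21 in Il10-/- and 0.36 in C57BL/6J mice, and Elovl5 lies at -0.25 and -0.31.

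The single diets were compared next, each with the same arrays serving in more than 1 comparison. None of the 10 genes passed for EPA minus OA, AA minus OA, EPA minus AA or OA minus CO over both genotypes, where 0% of all genes did in each. For Elovl5 the difference was -0.20 for EPA and -0.21 for AA against OA, with intervals of -0.48 to 0.08 and -0.48 to 0.07. For Fads1 these were -0.14 and -0.18, and for Fads2 -0.12 and -0.10. With the array of conflicting labels counted as EPA they were -0.12 and -0.17 (-0.165) for Elovl5, 0.03 and -0.07 for Fads1, where EPA minus OA turned direction, and -0.07 and -0.09 for Fads2. EPA and AA themselves differed by 0.01 in Elovl5, 0.04 in Fads1 and -0.02 in Fads2. The intervals were -0.27 to 0.29, -0.29 to 0.36 and -0.21 to 0.18. They bound a difference between the n-3 and the n-6 product only to these widths and within array spread that may be technical.

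Scd1 was not called lower on its own product, oleic acid: OA minus CO was 0.38 over both genotypes (95% interval -0.56 to 1.32; adjusted p = 0.902 by limma). It was 0.62 in Il10-/- and 0.14 in C57BL/6J mice, and the C57BL/6J CO arrays were those at 1.21 and -1.20. Elovl1 was the elongase with the lowest unadjusted p in OA minus CO. In C57BL/6J mice it had 0.45 and 0.86 on OA and 0.21 and 0.03 on CO, a difference of 0.53 (interval 0.23 to 0.83; unadjusted p = 0.00222, adjusted p = 0.236 by limma), where 0.0154% of all genes were called. In Il10-/- mice it had 0.50 and 0.62 on OA and 0.58 and 0.43 on CO, a difference of 0.06 (interval -0.24 to 0.36). Without C57BL/6J CO replicate 1, which leaves the array that stood apart as the lone CO array, 8.06% of all genes were called for OA minus CO in C57BL/6J mice, against 0.0154% with it. Elovl1 (0.62) and Elovl3 (-0.80) were then among them (limma, adjusted p = 0.0433 and 0.0106), as was Scd2, whose OA values were both tied.

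In the order of the 8 group means, Fads2 ran from Il10-/- CO (0.03), OA (0.02), EPA (-0.16) and AA (-0.25) to C57BL/6J AA (-0.26), OA (-0.33), EPA (-0.39) and CO (-0.39). Neighbours in that order lay closer than the within-group SD of 0.13, except Il10-/- OA and EPA, which were 0.18 apart. Scd1 ran from C57BL/6J AA (0.53), OA (0.14), EPA (0.03) and CO (0.00, 0.005) to Il10-/- OA (-0.52), AA (-0.95), EPA (-1.12) and CO (-1.14), with a within-group SD of 0.74. Elovl5 ran from Il10-/- CO (-0.96), C57BL/6J CO (-1.08), Il10-/- OA (-1.08), Il10-/- EPA (-1.22), C57BL/6J OA (-1.26) and Il10-/- AA (-1.32) to C57BL/6J AA (-1.43) and EPA (-1.52), with an SD of 0.20 (0.205). For Fads1 the range of the group means, 0.29, was hardly above its within-group SD of 0.24. Over the 10 genes the widest gap between the 2 arrays of a group was in C57BL/6J CO for Fads1, Scd1, Scd2, Elovl3, Elovl6 and Elovl7.

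The pathway lists were read in the EPA and AA against OA and CO comparison as well. Pdk4, a gene that PPAR alpha induces, was the gene called among them, and in Il10-/- mice it was 1.41 ± 0.16 higher (limma, adjusted p = 0.0106), in a comparison that called 0.0618% of all genes higher. Of the 20 genes of PPAR alpha and fatty acid oxidation, 19 were above 0 over both genotypes with a median of 0.14. In Il10-/- mice the gene that encodes SREBP-1, Srebf1, differed by -0.47 ± 0.11 (limma, adjusted p = 0.178), which does not pass. Of the 17 cholesterol synthesis genes 16 were below 0 in Il10-/- mice, with a median of -0.18, and 0 were called. In C57BL/6J mice 16 were above 0, with a median of 0.11, and 0 were called. Against OA alone the medians for EPA and AA were -0.24 and -0.20 in Il10-/- mice, and -0.03 and 0.07 in C57BL/6J mice. For OA minus CO the medians were 0.02 in Il10-/- and 0.22 in C57BL/6J mice. Of the 20 lipogenic genes, which include Srebf1, 12 were above 0 over both genotypes, with a median of 0.04 and 0 called. In Il10-/- mice 12 of the 20 were above 0 (median 0.05), and in C57BL/6J mice 14 were (median 0.11), with 0 called in either. Of the 17 genes of other desaturation and elongation steps 4 were above 0 over both genotypes, with 0 called.

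Genes whose levels went most closely with those of 4 desaturases over the 16 arrays were sought among 15665 genes, as a description by Pearson's r. For Scd1 they were Lipe, the hormone-sensitive lipase of adipocytes (r = 0.937), Elmod3 (0.934), Lgals12, a galectin of adipocytes (0.927), Osbpl11 (0.922) and Zfp747 (0.92). For Fads2 they were Lrrc59 (0.954), Arnt (0.944), Parp10 (0.919), Sdc3 (0.913) and Gcnt2 (0.912). For Fads1 they were Zfp775 (0.865), Olfr304 (0.844), Ppp1r32 (0.817), Aldh1l2 (0.805) and Sdk2 (0.785). For the largely tied Scd2 they were Esm1 (0.924), Ddit4l (0.915), Lifr (0.914), Slc38a4 (0.913) and Slco1a1 (0.91), which says little of Scd2 itself. The arrays share the genotype difference and the array that stood apart.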

How the data were processed

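The deposited table held log2 ratios of 16 two-channel Agilent arrays, processed by the authors. Per the submitters' processing notes limma was used, with no version or role. The sources used here do not state background correction, normalization or how missing values arose. Per the labels, the sample was in Cy3 and the reference in Cy5. The base and the direction of the log were not stated: base 2 is an assumption, and the direction was read from liver and kidney genes. No spot brightness was used, so the number of arrays limits the precision, and dim spots could not be told from others.

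Tests covered the 37252 features measured at least once per group, with features of a symbol averaged, giving 17995 named genes and 7897 unnamed features. Symbols were those of the platform annotation, which gave a single symbol for 32042 features, and the 47 features with several were not named. limma 3.58.1 in R 4.3.3 fitted 8 group means to all 16 arrays (lmFit, contrasts.fit, eBayes, with 8 residual and 4.07 prior degrees of freedom), with Benjamini-Hochberg adjustment across the 25892 tests of a comparison. The procedure was tested on simulated data. Levels are mean ± SD over arrays, differences carry the SE or the 95% interval of the fit. Python 3.11.15 with pandas 2.3.3 and matplotlib 3.10.9 was used for tables and figures.

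The 10 genes and the gene lists were chosen with earlier results of these data known. All 10 genes are named. Of each list, up to 4 called genes are named by size of difference, or the 2 largest where none was called. Likeness was Pearson's r over genes with a value on all arrays and no tied value. Alternatives were the replicate number as a block, quantile normalization, array weights, features with a value on all arrays, the median of features, single features, tied values set to missing, the array with conflicting labels counted as EPA or left out, the compared groups alone, another variance model and each array left out.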

Additional observations from a re-analysis of the deposited data

Results flagged for a closer look

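In 20 sets of 8 arrays (the 10 genes in each genotype), 3 values lay further from the rest than Dixon's criterion allows, and chance flags about 1 in 20 sets. Scd2 in C57BL/6J CO replicate 2 was at 0.354, above the next value of 0.133, and it is the C57BL/6J array on which the Scd2 feature was not tied. Elovl3 on the same array was at -1.244, above the next value of -1.889. This is the array that stood apart from the others over all features. Elovl6 in Il10-/- EPA replicate 1 was at 0.351, below the next value of 0.698.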

How the results depend on the processing

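Leaving out 1 array at a time gave 1 to 3 called genes between genotypes, against 2 with all arrays. Fads2 was called in 25 of 25 alternatives, with differences of 0.21 to 0.29, and Scd1 in 18 of 25, with differences of -1.41 to -0.81. The 7 lost calls came with 1 array left out, and the cause was not tested beyond the smaller number of arrays. The count over the single-diet genotype comparisons was 0. It was 1 with quantile normalization (Fads3 on CO, 0.52), with array weights (Fads2 on OA, 0.35) and with single features (Fads3 on CO, 0.59). With single features a gene was counted by its feature of lowest p, and the other Fads3 feature gave 0.12 on CO and did not pass. With the compared groups alone the count was also 1 (Scd1 on OA, -0.66). Leaving out 1 array gave 0 to 3 there. The calls without C57BL/6J CO replicate 1 were Fads2, Scd2 and Elovl3 on CO, at 0.53, -0.37 and -0.82. This leaves the array that stood apart as the lone C57BL/6J CO array, assumed to vary like the other groups. The Scd2 values of C57BL/6J are tied on the other arrays, so its call says little. Without replicate 2 of C57BL/6J CO the calls were Scd1 and Elovl7 on CO, at -2.35 and 0.60. In both fits a larger share of all genes was called on CO than with all arrays, so these calls say little of these genes in particular. Samples of the same replicate number deviated from their group means with correlations of -0.34 to 0.38 (median 0.05, 28 pairs of groups). Of these, 11 were over 0.1 and 6 under -0.1, so whether the numbers pair the samples was not settled. With the replicate block the single-diet count was 1 (Fads2 on CO, 0.42, limma, adjusted p = 0.0314). The count between genotypes was 2, with adjusted p of 0.0061 for Fads2 and 0.00813 for Scd1 by limma. The counts for EPA and AA against OA and CO over both genotypes stayed at 0 in every alternative run. No called difference changed sign.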
